A study of Mus musculus with 8 samples.

Results

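The IL-6 and oncostatin axis was described through 7 genes of the mouse: the ligands Il6, Osm and Lif, and the receptor chains Il6ra, Il6st, Osmr and Lifr. They were chosen by name, by matching these symbols to the Ensembl IDs of the count table, and are 7 of its 55414 gene rows. All 7 had enough reads to be tested. Red pulp macrophages, the iron-recycling macrophages of the spleen, had been sorted by flow cytometry from wild-type C57BL/6J mice at 2 h after surgery. In 4 libraries the mice had undergone cecal ligation and puncture (CLP), a sepsis model in which gut bacteria leak from the punctured cecum, and in the other 4 a sham operation as control. Both groups share the genotype, the time point and the surgical setting, and nothing on age, sex or the sorting markers was found in the labels. Whether the libraries stem from different mice is not stated either. The p-values therefore reflect only the spread among these libraries, which may in part be technical.

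Cytokines of this family signal through gp130, the shared receptor chain encoded by Il6st. IL-6 first binds its own receptor, encoded by Il6ra, either on the cell or shed into the fluid around it, and the complex then joins gp130 chains. Leukemia inhibitory factor (Lif) brings gp130 together with the chain encoded by Lifr, and in the mouse oncostatin M (Osm) acts mainly through gp130 and the chain encoded by Osmr. The receptors activate JAK kinases and STAT3. IL-6 drives the hepatic acute phase response and fever in sepsis, and macrophages are among its sources.

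Total counts were 15392992 to 25665633 per library. Values are CPM, counts scaled to a library of 1000000 reads after correction of library sizes by TMM, edgeR's factors for RNA composition, so that 1 CPM stands for 15.1 to 27.6 reads. Of 14004 genes tested with edgeR's quasi-likelihood test, 43.3% passed an adjusted p of 0.05, and 19.8% were higher and 23.5% lower after CLP. The red pulp macrophage markers Vcam1 (11400 to 17800 CPM), Adgre1 (1560 to 2360 CPM) and Spic (1010 to 2630 CPM) were abundant in all 8 libraries. Erythroid markers summed to 1290 CPM in sham replicate 4 and to 264 to 441 CPM in the other sham libraries, and the main results that it touches are given with and without it.

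After CLP the ligands Il6 and Lif and the receptor chains Osmr and Il6st were higher, Lifr was lower, and Il6ra and Osm did not pass the test. Thus 4 of the 7 genes were higher, where 19.8% of all genes were, and 1 was lower, where 23.5% were. The CPM of the groups did not overlap for 5 of the 7, against 41.5% of all genes (18.7% with CLP higher and 22.8% with CLP lower). By fold change Osmr ranked 58th and Il6 60th from the top of the 14004 genes, Lif ranked 120th, and Lifr ranked 1595th from the bottom. Among the receptor chains, calls thus went in both directions. The 7 genes were chosen with earlier results of these data known, so these shares and ranks are a description and no test.

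**Figure D1:**
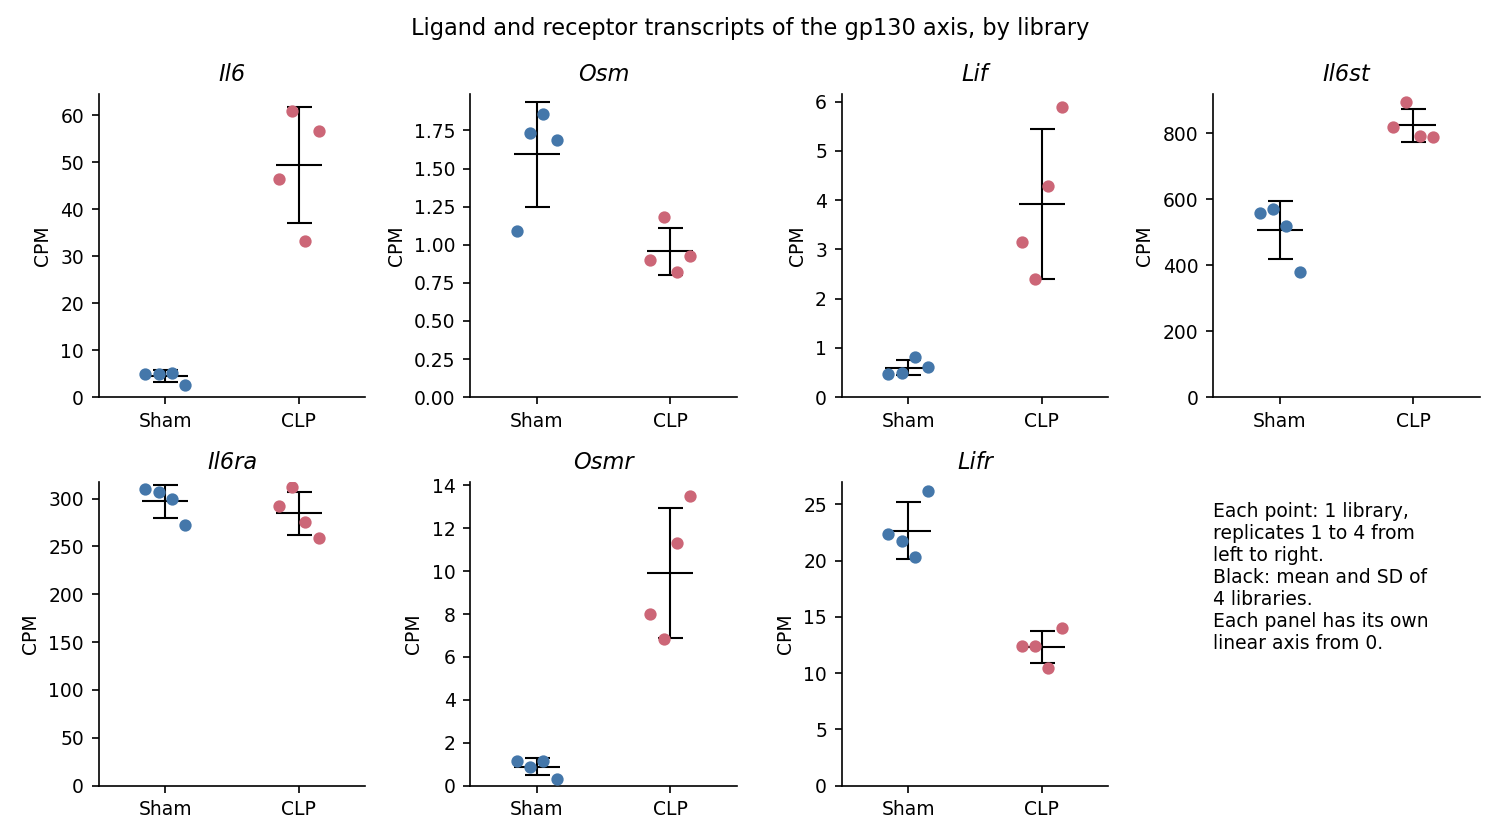
CPM (vertical axes, linear, each panel with its own scale) of the 7 genes in 4 sham and 4 CLP libraries. Points are libraries and black marks are the mean and SD. Il6 lies between 33.3 and 61.0 CPM after CLP and at most at 5.24 CPM in sham, and Il6ra overlaps between the groups.

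The promoters of the 3 genes that rose most, Il6, Lif and Osmr, are shown because their RNA rose in the same comparison. Each is the 250 bases before the transcription start in RefSeq (build GRCm38.p6), 5′ to 3′ on the strand of the gene, at chr5:30012864-30013113 on the plus strand for Il6, chr11:4257318-4257567 on the plus strand for Lif and chr15:6874314-6874563 on the minus strand for Osmr. Capitals mark the matches found on either strand. The motifs searched were that of NF-kB, the STAT motif TTCNNNGAA and the C/EBP motif TTNNGNAA. The search also covered AP-1 sites, with the letters TGANTCA, and the core of the cyclic AMP response element (CRE), which reads TGACGT in the forward direction. The last motif was the TATA box, taken as TATAAA.
Il6: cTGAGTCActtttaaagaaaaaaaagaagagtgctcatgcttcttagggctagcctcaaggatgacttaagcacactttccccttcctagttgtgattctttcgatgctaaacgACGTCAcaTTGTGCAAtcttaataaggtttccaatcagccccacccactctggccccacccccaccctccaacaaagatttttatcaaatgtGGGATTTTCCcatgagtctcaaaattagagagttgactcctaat
Lif: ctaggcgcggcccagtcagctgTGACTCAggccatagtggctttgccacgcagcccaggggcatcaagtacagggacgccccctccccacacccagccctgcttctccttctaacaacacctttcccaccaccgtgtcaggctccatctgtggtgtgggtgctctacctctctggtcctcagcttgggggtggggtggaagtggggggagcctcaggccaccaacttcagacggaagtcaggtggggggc
Osmr: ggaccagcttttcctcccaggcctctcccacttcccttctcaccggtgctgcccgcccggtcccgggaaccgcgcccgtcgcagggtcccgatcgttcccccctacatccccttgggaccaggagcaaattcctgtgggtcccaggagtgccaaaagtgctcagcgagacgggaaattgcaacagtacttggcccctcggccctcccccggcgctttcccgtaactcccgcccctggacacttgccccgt

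The Il6 window held 4 kinds of match: GGGATTTTCC, an NF-kB site, 44 to 35 bases before the start, TTGTGCAA (C/EBP) 128 to 121 bases before it, a reverse CRE core 136 to 131 bases before it, and an AP-1 match 249 to 243 bases before it. None of these overlapped another. The Lif window held 1 match, to AP-1, 228 to 222 bases before the start, and no motif searched was found in the Osmr window. Over all 32851 RefSeq promoter windows of this length, 3.90% held an NF-kB site, 6.75% the AP-1 letters, 6.47% the CRE core, 36.8% the C/EBP letters, 7.02% the STAT letters and 12.4% the TATA letters. The GC content was 42.8% for Il6, 63.6% for Lif and 66.0% for Osmr. RefSeq windows were matched for 6 of the 7 genes. The window of Il6st and the 2 windows of Lifr held no match, and that of Il6ra held 2, both to C/EBP. A match is a description of letters, and no binding was measured here.

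Il6 encodes interleukin-6. Its CPM was 46.4, 61.0, 33.3 and 56.7 in CLP replicates 1 to 4, and 5.03, 4.98, 5.24 and 2.55 in sham replicates 1 to 4. Every CLP library lay above every sham library, and sham replicate 4 was the lowest. Il6 thus rose 11.1-fold, or by 3.47 on the log2 scale with an SE of 0.26 (adjusted p = 1.26e-05 in edgeR). It was 3.30 without sham replicate 4. The sham values rest on 62 to 139 reads and the CLP values on 608 to 1194 reads.

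Lif encodes leukemia inhibitory factor. Its CPM was 3.14, 2.40, 4.28 and 5.89 in CLP replicates 1 to 4, against 0.470, 0.494, 0.816 and 0.617 in the sham libraries. The groups did not overlap, though the gene was low throughout, with 47 to 89 reads after CLP and 12 to 15 reads in sham. Lif rose 6.59-fold, a log2 change of 2.72 with an SE of 0.34 (edgeR adjusted p = 9.34e-05). With 1 surrogate variable in the fit the change was 2.06 and still passed.

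Osm encodes oncostatin M. It was near the limit of detection, with 14 to 23 reads in the CLP libraries and 30 to 42 in the sham libraries. Its CPM was 0.897, 1.18, 0.822 and 0.926 in CLP replicates 1 to 4 and 1.09, 1.73, 1.86 and 1.69 in sham replicates 1 to 4. The groups overlapped through sham replicate 1, which lay below CLP replicate 2. The log2 fold change of -0.72 (SE 0.28) did not pass the test (adjusted p = 0.0600 in edgeR). The gene did pass as lower without sham replicate 1 (-0.84, adjusted p = 0.0352) and with library totals instead of TMM factors (-1.04, adjusted p = 0.0105), a scaling that moved the fold changes of all genes by a median of -0.32. No rise in Osm was seen beside those in Il6 and Lif under any setting run.

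Il6st, which encodes gp130, was the most abundant of the 7 genes. Its CPM was 820, 895, 792 and 789 in CLP replicates 1 to 4 and 559, 569, 518 and 381 in sham replicates 1 to 4. All CLP libraries were above all sham libraries, and sham replicate 4 was the lowest. The gene rose 1.63-fold (log2 fold change 0.70, SE 0.12, adjusted p = 0.000666 in edgeR), or by 0.61 without sham replicate 4 and 0.39 with library totals, where it still passed.

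Il6ra encodes the IL-6 binding chain. Its CPM was 292, 312, 276 and 259 in CLP replicates 1 to 4 and 310, 307, 300 and 272 in sham replicates 1 to 4. The groups overlapped over most of their range, and the coefficient of variation was 7.94% in CLP and 5.83% in sham, the lowest of the 7 genes in sham. The log2 fold change was -0.06 (SE 0.08, adjusted p = 0.555 in edgeR). With library totals it became -0.38 and was called lower (adjusted p = 0.00173), close to the median shift of all genes under that scaling. An antisense gene model, Gm42809, covers 2.80% of the exon bases of Il6ra, and it had 3 to 12 reads per library against 3913 to 8572 for Il6ra.

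Osmr encodes the oncostatin M receptor chain. Its CPM was 8.01, 6.85, 11.3 and 13.5 in CLP replicates 1 to 4 and 1.16, 0.865, 1.17 and 0.329 in sham replicates 1 to 4. All CLP libraries stood well above all sham libraries, and sham replicate 4, with 8 reads, was again the lowest. The log2 fold change was 3.50 (SE 0.36, adjusted p = 2.92e-05 in edgeR), an 11.3-fold rise. It was 3.24 without sham replicate 4 and 2.82 with 1 surrogate variable, and passed in both. Osmr reached the filter's level of 0.485 CPM in all 4 CLP libraries and in 3 of 4 sham libraries, so it entered the test through the group where it was high.

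Lifr encodes the receptor chain for leukemia inhibitory factor. Its CPM was 12.4, 12.4, 10.5 and 14.0 in CLP replicates 1 to 4 and 22.4, 21.7, 20.3 and 26.2 in sham replicates 1 to 4. Here all CLP libraries lay below all sham libraries, and sham replicate 4 was the highest. The gene fell by 0.88 on the log2 scale (SE 0.12, adjusted p = 0.000186 in edgeR), and by 0.78 without sham replicate 4. The receptor of a ligand that rose was therefore lower, while the receptor of a ligand with no rise was higher. In sorted cells measured in bulk, fewer expressing cells and less RNA per cell cannot be told apart.

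The CLP libraries did not rank alike for the 3 genes of large rise. Osmr and Lif had the same order, with CLP replicate 4 highest, then replicates 3, 1 and 2, whereas Il6 was highest in CLP replicate 2 and lowest in CLP replicate 3. With 4 libraries this is a description only.

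Levels were compared between genes as CPM per kilobase of annotated exon, a scale on which gene length is divided out. In sham the order was Il6st (45.7 ± 7.8, SD, n = 4), Il6ra (34.4 ± 2.0), Lifr (2.10 ± 0.23), Il6 (1.83 ± 0.52), Osm (0.700 ± 0.152), Lif (0.138 ± 0.036) and Osmr (0.0726 ± 0.0324). Il6st and Il6ra overlapped between libraries, as did Lifr and Il6. After CLP it was Il6st (74.3 ± 4.4), Il6ra (33.0 ± 2.6), Il6 (20.3 ± 5.1), Lifr (1.14 ± 0.13), Lif (0.903 ± 0.349), Osmr (0.820 ± 0.252) and Osm (0.421 ± 0.068). The levels of Lifr, Lif and Osmr overlapped after CLP, whereas in sham Lifr lay above both, and Lif and Osmr did not overlap but were close. The exons of Osmr together span 12113 bases and its longest transcript 5491 bases. By longest transcript its mean level was 0.160 in sham and 1.81 after CLP, which puts it above Lif in sham and above Lifr and Lif after CLP.

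**Figure D2:**
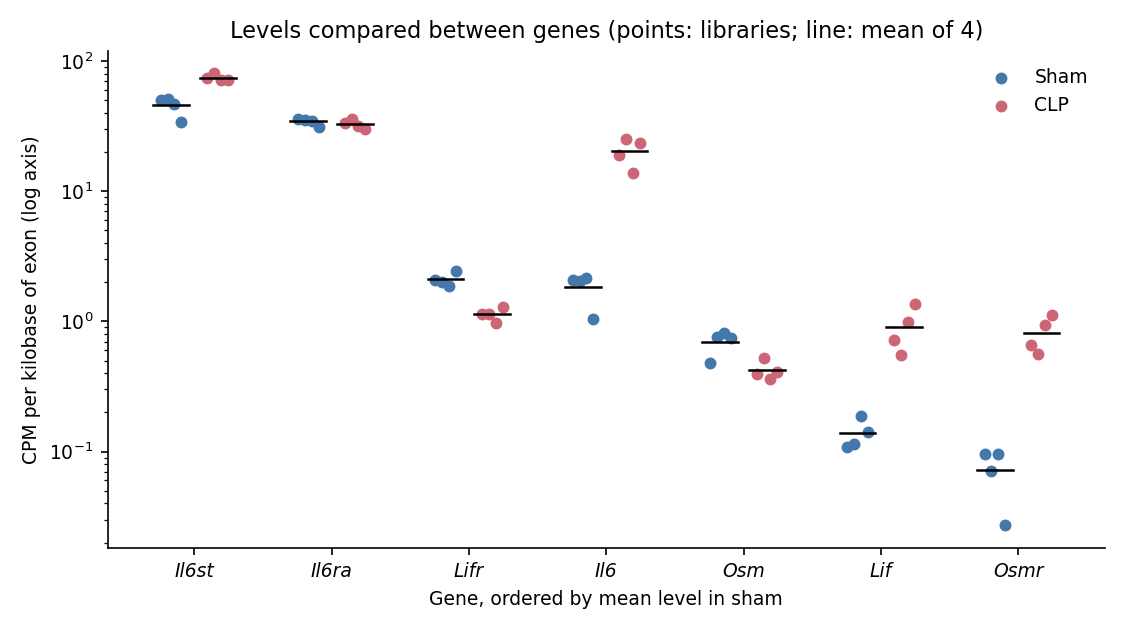
Level of each gene in CPM per kilobase of exon (vertical log axis), with 4 sham and 4 CLP libraries as points and the mean as a line. Il6st and Il6ra lead in both groups, Il6 goes from 1.83 to 20.3, and Lifr, Lif and Osmr come together at about the same level after CLP.

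Ratios of read counts within a library do not depend on how libraries are scaled. Of the 8 ratios chosen, 5 could be tested, because the other 3 involve Osmr, which had under 10 reads in sham replicate 4. Their p-values come from two-sided exact permutation tests over 70 assignments, whose smallest possible p is 0.0286. All 5 reached it (Benjamini-Hochberg adjusted over the 5 ratios, 0.0286), and none of them overlapped between the groups. Each holds Il6, Lif, Lifr or Il6st, whose CPM alone separated the groups, so these tests add no independent evidence.

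Among ligand to receptor ratios, there were 6.29, 5.11, 8.28 and 4.57 reads of Il6ra for each read of Il6 in CLP replicates 1 to 4, and 57.3 to 107.0 in the sham libraries. The ratio of Il6 to Il6ra was thus 11.8-fold higher after CLP (log2 difference 3.56, or 3.35 without sham replicate 4). Lifr had 2.38 to 5.15 reads for each read of Lif after CLP and 24.9 to 47.7 in sham. The ratio of Lif to Lifr was thus 11.7-fold higher (log2 difference 3.55, or 3.39 to 3.76 with each library left out). Il6 had 1.51 to 4.63 reads for each read of Osm in sham and 40.5 to 61.2 after CLP, an 18.5-fold difference. In log2 this was 4.21, or 3.92 without sham replicate 4, which had the lowest ratio.

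Among receptor chains, the ratio of Il6ra to Il6st was 0.356, 0.348, 0.348 and 0.328 in CLP replicates 1 to 4 and 0.555, 0.539, 0.580 and 0.714 in the sham libraries, a 1.72-fold fall. The CLP libraries were close to each other and sham replicate 4 was the highest, without which the log2 difference went from -0.78 to -0.69. The ratio of Lifr to Il6st fell 3.03-fold, from 0.0381 to 0.0688 in sham to 0.0133 to 0.0178 after CLP (log2 difference -1.60, or -1.39 without sham replicate 4). Osmr to Lifr, given without a test, was 0.648, 0.554, 1.08 and 0.962 after CLP against 0.0516, 0.0399, 0.0573 and 0.0125 in sham. Reads of the oncostatin M receptor chain were thus a small share of those of Lifr in every sham library, and after CLP they were fewer in 3 libraries and more in CLP replicate 3.

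**Figure D3:**
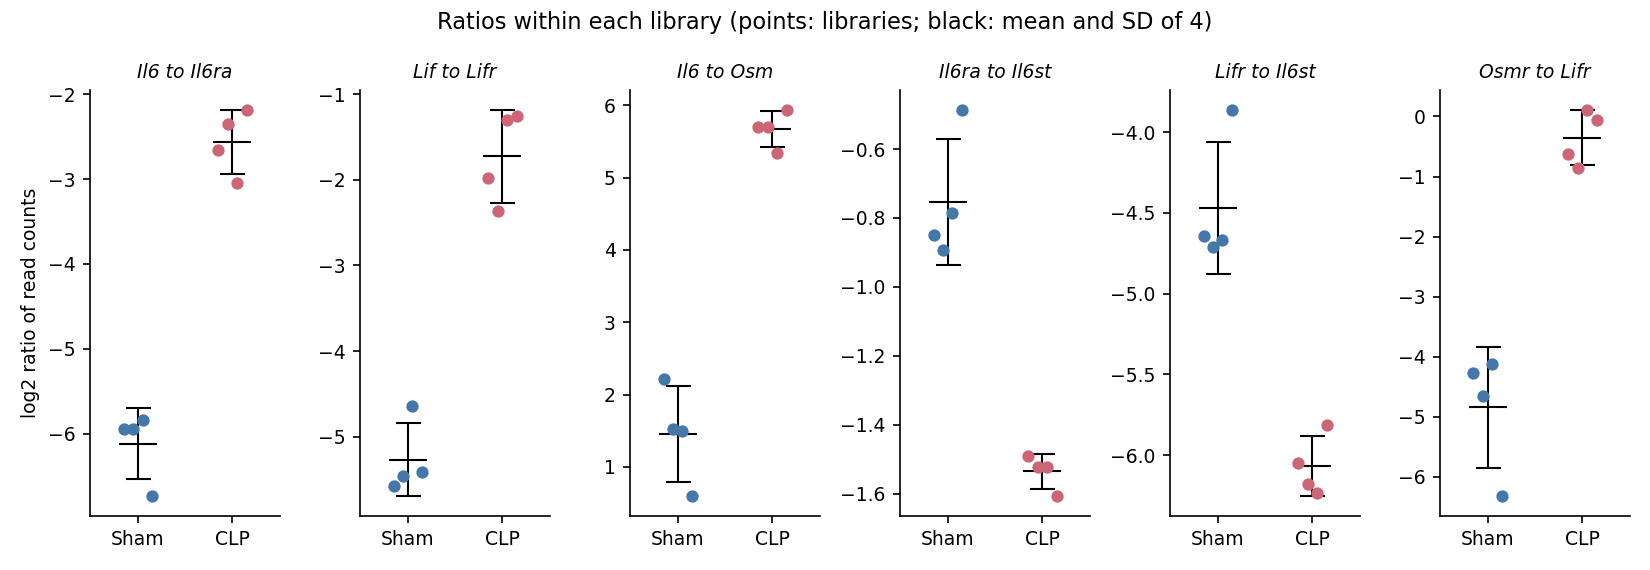
Log2 ratio of read counts of 2 genes (vertical axes) within each of 4 sham and 4 CLP libraries, with mean and SD in black. All 6 ratios separate the groups. Il6 to Il6ra, Lif to Lifr, Il6 to Osm and Osmr to Lifr are higher after CLP, and Il6ra to Il6st and Lifr to Il6st are lower.

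Other genes of the family were taken from a list of 9 ligands, of which 3 could be tested, and all 3 were higher after CLP (3 without sham replicate 4 and 3 with library totals). Clcf1, a ligand of the ciliary neurotrophic factor receptor, was at 334, 335, 243 and 345 CPM in CLP replicates 1 to 4 and at 44.8, 50.4, 66.6 and 33.7 CPM in sham (log2 fold change 2.69, SE 0.21, adjusted p = 1.71e-05 in edgeR). It was the most abundant ligand of the family in CPM, a scale that does not divide out gene length (3806 exon bases, against 1154 for Ebi3). Il27, a subunit of interleukin-27, was at 22.1, 14.8, 21.1 and 51.2 CPM after CLP and at 2.39 to 4.08 CPM in sham (log2 fold change 3.11, SE 0.41). Its partner Ebi3 was at 60.6 to 69.6 CPM after CLP and at 28.3 to 37.0 CPM in sham (log2 fold change 0.99, SE 0.10). Il11, Ctf1, Ctf2, Cntf and Il31 had at most 8 reads in any library.

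Of 4 other receptor chains 3 could be tested, and 0 were called higher or lower in edgeR, at an unadjusted p under 0.05, in DESeq2 or in limma-voom. Il11ra1, the IL-11 receptor chain, was at 11.8 to 19.3 CPM after CLP and 12.4 to 14.7 CPM in sham (log2 fold change 0.14, SE 0.16, adjusted p = 0.512). Il27ra was at 1.15 to 4.33 and 1.38 to 3.03 CPM (0.30, SE 0.40), and Il31ra, which pairs with Osmr in the interleukin-31 receptor, at 0.219 to 1.02 and 0.543 to 1.15 CPM (-0.28, SE 0.44). Cntfr, through which the protein of Clcf1 acts, had at most 7 reads in any library.

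**Figure D4:**
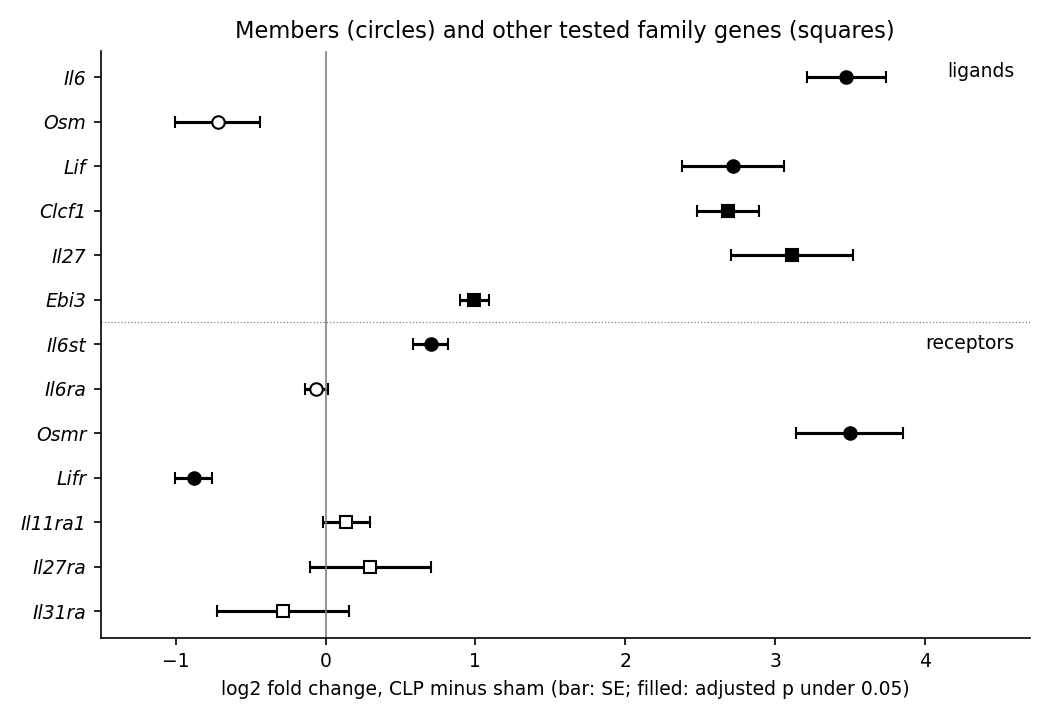
Log2 fold change, CLP minus sham, with its SE (horizontal axis) for the 7 genes (circles) and the 6 other tested genes of the family (squares), ligands above the dotted line and receptor chains below. Filled symbols passed an adjusted p of 0.05. Of the 6 ligands 5 were higher, and of the 7 receptor chains 2 were higher and 1 lower.

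The lists that follow hold other genes of the pathway, and are to be read against all 14004 genes, of which 19.8% were higher and 23.5% lower, with a median log2 fold change of -0.05. In receptor-proximal signalling 9 of 17 genes were higher and 3 lower, with a median of 0.24. Without sham replicate 4 these counts were 9 and 3, and with library totals 5 and 6. The kinase Jak2 rose from 112 ± 10 to 312 ± 43 CPM (SD, n = 4 each; log2 fold change 1.48, adjusted p = 2.73e-06 in edgeR), and Stat3, the main transcription factor of the pathway, from 262 ± 38 to 487 ± 95 CPM (0.89). Stat5a rose by 0.70, a call that library totals (adjusted p = 0.0729) and 1 surrogate variable (0.228) ended. Jak1, the most abundant gene of the list, rose by 0.47 (adjusted p = 0.0502 with library totals). Lower genes, named after their values were seen, included Tyk2 (-0.28) and Stat5b (-0.29, adjusted p = 0.0564 with 1 surrogate variable).

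Of 10 negative regulators 6 were higher and 3 lower, with a median of 0.51 (5 and 3 without sham replicate 4, 4 and 4 with library totals). Socs3, the inhibitor that binds gp130 itself, was at 3900, 3440, 3300 and 3400 CPM in CLP replicates 1 to 4 and at 606, 687, 562 and 200 CPM in sham, with sham replicate 4 the lowest (log2 fold change 2.77, SE 0.35, adjusted p = 0.000421 in edgeR, and 2.53 without that library). Socs1 rose from 7.40 ± 1.64 to 40.2 ± 13.8 CPM and Cish from 6.69 ± 1.41 to 25.6 ± 4.5 CPM. The lower genes, picked once their values were known, were the phosphatase gene Ptpn6 (-0.33) and the STAT inhibitors Pias1 (-0.47) and Pias3 (-0.72). With 1 surrogate variable Ptpn6 (adjusted p = 0.0602) and Pias3 (0.0564) lost their calls.

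Of 21 genes known to be induced through gp130 and STAT3, 18 could be tested and 17 were higher, with 0 lower in edgeR, also at an unadjusted p under 0.05, in DESeq2 and in limma-voom (16 and 0 without sham replicate 4, 15 and 0 with library totals) and a median of 1.02. Many of these genes also respond to NF-kB, and the list was chosen with results of these libraries known, so it is no independent evidence of its direction. Il1rn, the antagonist of interleukin-1, rose from 21.9 ± 8.5 to 242 ± 58 CPM (log2 fold change 3.47). Lcn2, an iron-sequestering protein of the acute phase, had 34 to 67 reads after CLP and 1 to 10 in sham. The acute phase gene Saa3 had 10, 11, 46 and 14 reads after CLP and 0 in every sham library, and was at least 36.8-fold higher against a floor of 3 reads over the sham group. With Saa3 at that bound the median stayed 1.02. Saa3 and Lcn2 entered the test through the CLP group, where they were high. With no filter on low counts all 21 genes were tested, and 15 were higher and 0 lower. Of the 18 genes that passed the filter, the one without a call was Junb (adjusted p = 0.111 in edgeR, log2 fold change 0.24). It was chosen after seeing its value, as were the untested genes of the list. Of these, Hp had 2, 5, 3 and 7 reads in CLP replicates 1 to 4 and 10, 25, 18 and 9 in sham replicates 1 to 4. Lrg1 had 7 to 11 reads after CLP and 5 to 28 in sham, and Timp1 had 3 to 10 and 1 to 4.

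Adam17 encodes the protease that sheds the IL-6 receptor in inflammation, and Rhbdf2 its escort protein. In the receptor shedding list 3 of 5 genes were higher and 0 lower in edgeR, also at an unadjusted p under 0.05, in DESeq2 and in limma-voom (3 and 0 without sham replicate 4, 3 and 1 with library totals), with a median of 0.68. Adam17 rose from 190 ± 12 to 303 ± 36 CPM, by 0.68 in log2 with an SE of 0.09 (edgeR adjusted p = 0.000172), and Rhbdf2 from 172 ± 16 to 326 ± 57 CPM (0.92). Timp3, an inhibitor of Adam17, rose by 1.18 from 3.58 ± 1.51 CPM. Protein and shed receptor were not measured.

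Among 10 genes that act on the decay or stability of Il6 mRNA 7 were higher and 1 lower, with a median of 0.38 (7 and 0 without sham replicate 4, 3 and 3 with library totals). Zc3h12a, the RNase Regnase-1 that cleaves Il6 mRNA, rose from 117 ± 27 to 380 ± 16 CPM, a log2 difference of 1.70 with an SE of 0.15 (edgeR adjusted p = 2.19e-05), or 1.57 without sham replicate 4. Arid5a, which stabilises Il6 mRNA, rose by 0.84 (adjusted p = 0.0221), a call lost without CLP replicate 3 (0.0787) or 4 (0.0523), with library totals (0.0848), with no filter on low counts (0.0943) and with 1 surrogate variable (0.237). Zfp36, the decay factor tristetraprolin and the most abundant of the list, rose by 0.62 (0.51 without sham replicate 4) and Zfp36l1 by 1.04. The lower gene was Zfp36l2 (adjusted p = 0.0386, log2 fold change -0.68), chosen after seeing its value, whose call was lost without any single library but CLP replicate 2 (adjusted p up to 0.0975).

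Of 11 factors known to act on the Il6 promoter 7 were higher and 2 lower, with a median of 1.01 (7 and 1 without sham replicate 4, 7 and 3 with library totals). The NF-kB subunit gene Rel rose from 232 ± 63 to 1306 ± 275 CPM, by 2.49 in log2 with an SE of 0.23 (edgeR adjusted p = 4.98e-05), and Nfkbiz, a nuclear cofactor of NF-kB needed for Il6 induction, from 414 ± 108 to 1382 ± 303 CPM. The AP-1 subunit gene Fos fell from 1537 ± 113 to 297 ± 100 CPM (-2.37). Jun, another AP-1 subunit gene, was at 930 ± 116 CPM in sham and 905 ± 119 CPM after CLP (-0.04, adjusted p = 0.807, but -0.36 and called lower with library totals, adjusted p = 0.0134). The other lower gene was Creb1 (-0.34), chosen after seeing its value. Leaving out CLP replicate 1, CLP replicate 2 or 1 of the sham libraries, whichever it was, ended its call (adjusted p up to 0.0975).

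**Figure D5:**
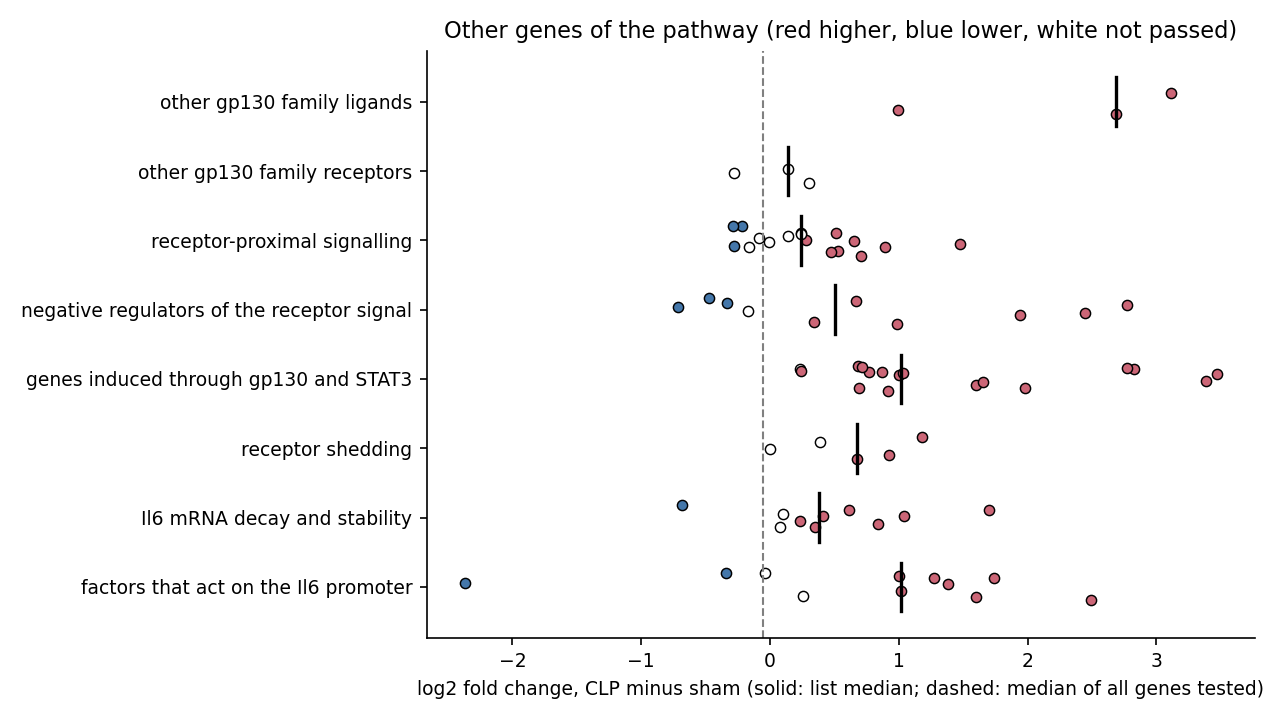
Log2 fold change, CLP minus sham (horizontal axis), of the tested genes of 8 lists (rows), 1 point per gene, red where higher, blue where lower and white where the test was not passed. Solid bars are list medians, from 0.14 for the other receptors to 2.69 for the other ligands, and the dashed line is the median of all genes, -0.05. Saa3, with no reads in sham, is not drawn.

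Other cells of the spleen can express these genes, so markers of 14 other cell types were summed in each library. Markers of fibroblasts and stroma, cells known for Il6, Lif, Osmr and Lifr expression, summed to 25.7 to 33.0 CPM after CLP and 11.7 to 19.4 CPM in sham without overlap. Their most abundant gene over all 8 libraries, Col1a2, was at 8.26, 9.51, 6.58 and 7.01 CPM in CLP replicates 1 to 4 and at 3.87, 4.82, 1.46 and 2.18 CPM in sham. Lum was at 0 in every library, and Dcn at most at 0.199 CPM. Of 7 stromal markers tested 4 were higher in edgeR, and Col1a1 (2.33-fold), Col3a1 (2.38-fold) and Wt1 (2.25-fold) were called beside Col1a2, the first 3 chosen after seeing their values. The other 3 tested did not pass, at 0.964-fold to 1.42-fold (adjusted p of at least 0.128 in edgeR).

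Neutrophil markers summed to 102, 107, 175 and 137 CPM in CLP replicates 1 to 4 and to 77.3 to 92.4 CPM in sham. Csf3r made up most of these sums, and the defining marker Ly6g was at most at 0.0641 CPM. Of the 4 neutrophil markers tested 3 were higher in edgeR: S100a8 (4.40-fold, adjusted p = 0.00351), S100a9 (4.91-fold, adjusted p = 0.00530) and Csf3r (1.40-fold, adjusted p = 0.0185). S100a8 and S100a9 were chosen after seeing their values. The other tested marker did not pass (1.33-fold, adjusted p = 0.525 in edgeR). Among the untested markers, also chosen after seeing their values, Cxcr2 had 0 to 7 reads after CLP and 7 to 12 in sham. Mmp9 had 0 to 9 and 9 to 18, Ngp 3 to 17 and 1 to 17, and Ltf 0 to 42 and 0 to 4 reads. Camp had at most 4 reads in any library. With 1 surrogate variable the calls of S100a8 (adjusted p = 0.0525), S100a9 (0.0576) and Csf3r (0.166) were lost. The sums were also higher after CLP without overlap for platelets (at least 18.9 against at most 8.81 CPM, with 3 of 5 tested markers called higher), for mast cells and basophils (7.62 to 10.1 against 6.47 to 7.36 CPM, mostly Kit, with Mcpt8 and Fcer1a at 0) and for T cells (109 to 134 against 98.8 to 106 CPM). The T cell sum was mostly Cd4, and 0 of its 7 markers passed the test in edgeR. The B cell sum was lower (36.4 to 46.9 against 48.3 to 56.1 CPM) through Cd79b, which fell by 0.58 on the log2 scale. The other 7 B cell markers did not pass, and Cd79a, chosen after seeing its value, was at 2.12 CPM in sham and 3.00 CPM after CLP. The part of these cells in the results above was not tested.

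The other sums overlapped. They were 39600 to 43900 CPM after CLP and 32600 to 40400 CPM in sham for red pulp macrophages. For endothelium they were 313 to 395 and 368 to 408 CPM, nearly all of it Stab2. The endothelial overlap thus describes Stab2, and a sum without it was not tested. Of 5 endothelial markers tested 0 passed, at log2 fold changes of -0.22 to 0.68 (adjusted p of at least 0.06055 in edgeR). For erythroid cells the sums were 698 to 1220 and 264 to 1290 CPM. The erythroid overlap came from sham replicate 4 alone, as the other sham libraries were at 264 to 441 CPM. Of 6 erythroid markers tested 3 were higher in edgeR and 3 did not pass. Among the latter, Slc4a1 was called higher without sham replicate 4 (log2 fold change 1.06, adjusted p = 0.0275). Marginal zone macrophage markers summed to 368 to 677 and 305 to 374 CPM. Dendritic cell markers summed to 58.1 to 82.9 and 49.6 to 64.8 CPM, and plasma cell markers to 14.3 to 50.2 and 19.2 to 41.7 CPM. Some markers in these lists passed in edgeR, where 19.8% of all genes were higher and 23.5% lower. Of 9 red pulp macrophage markers 5 were higher and 1 lower, and of 5 dendritic cell markers tested 2 and 1. Higher were 1 of 3 marginal zone markers and 1 of 2 plasma cell markers tested, with 0 lower. Of 5 NK cell markers 0 were higher and 1 lower, and no tested monocyte or plasmacytoid dendritic cell marker passed. The lower NK cell marker did not overlap between the groups (log2 fold change -2.05), with 3 to 4 reads after CLP and 16 to 29 in sham. Monocyte markers were at 14.3 to 22.0 and 14.8 to 16.8 CPM, and plasmacytoid dendritic cell markers at 2.18 to 4.11 and 1.95 to 2.97 CPM. NK cell markers were at 4.23 to 4.43 CPM in CLP replicates 1, 2 and 4, below the 5.25 to 8.10 CPM of sham. The NK cell overlap came from CLP replicate 3 alone, which lay above every sham library. By the mean over both groups, the most abundant tested marker was Siglec1 for marginal zone macrophages, Plac8 for monocytes, Cd79b for B cells, Jchain for plasma cells, Cd4 for T cells, Prf1 for NK cells, Batf3 for dendritic cells, Ccr9 for plasmacytoid dendritic cells, Kit for mast cells and basophils, Ppbp for platelets and Slc4a1 for erythroid cells.

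For each gene the 3 genes of most similar pattern were found among at least 9041 named genes that averaged 5 CPM or more, by the root mean square difference of centred log2 CPM over the 8 libraries, which all share the contrast of CLP and sham. For Il6 they were Ptgs2, the inducible cyclooxygenase (0.172), Cd14 (0.264) and Sdc4 (0.277). Ptgs2 went from 44.5 ± 10.1 to 545 ± 149 CPM. For Osmr they were Rnd1 (0.220), Sema4c (0.234) and Gpr85 (0.237), and for Lif Ifi205 (0.205), Grhl1 (0.208) and Cd63 (0.225). Il6st lay nearest to Dusp1 (0.0735), St6gal1 (0.0776) and Zfp36 (0.0784), and Lifr to Dele1 (0.0496), Tbccd1 (0.0776) and Abi3 (0.0824). Il6ra lay nearest to Nub1 (0.0508), Tbl1xr1 (0.0509) and Pip4k2a (0.0513), and Osm to Pigl (0.116), Vrk2 (0.134) and Primpol (0.137).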

How the data were processed

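RNA-seq read counts of 8 libraries (4 CLP, 4 sham) were used. The authors deposited 1 table of raw read counts, with Ensembl genes in rows and libraries in columns. Per the submitters' processing notes, FastQC, STAR 2.7.10b, featureCounts, DESeq2 and the build mm39 were used, without stated roles. Libraries were stranded, per the labels' protocols, but no source used here gives the annotation or the strand setting of the counting. Symbols and exon lengths came from GENCODE M21 (52081 of 55414 IDs matched), an older build, so no coordinates of the counted genes are given. The 3333 other IDs held 0.19% to 0.912% of the counts of a library.

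The test was the robust quasi-likelihood F-test of edgeR 4.0.16 (R 4.3.3) with group as the only term. It ran on the 14004 genes that filterByExpr kept. TMM factors lay between 0.873 and 0.915 for CLP and between 1.08 and 1.15 for sham. Benjamini-Hochberg adjustment covered these 14004 genes. A log2 fold change is CLP minus sham, and its SE was derived from it and the F statistic. The step was tested on simulated data in which few genes changed, so that test does not check the scaling used here. No 2 libraries of a group were alike within sampling noise, since chi-square was at least 8.48 times its degrees of freedom. The 7 genes and all lists were chosen with earlier results of these data known. Some genes of the lists are counted but not reported by name here. The rule for named genes took, from each of 8 pathway lists, the 3 largest changes and the most abundant gene, every tested family gene, the most abundant marker of each of 15 cell type lists, and the 3 genes most like each of the 7. Alternatives were DESeq2 1.42.0, limma-voom (limma 3.58.1), 2 other scalings, 2 other filters, a replicate block, 1 surrogate variable (sva 3.50.0) and each library left out in turn. Counts of list genes under these settings were added after the data were seen. Figures used Python 3.11.15 and matplotlib 3.10.9.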

Additional observations from a re-analysis of the deposited data

Results flagged for a closer look

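Among 188 groups of 4 libraries, those in which 1 library lay far from the other 3, relative to the range of the group, were sought. The groups held the values of the ratios and of the tested genes named by rule or after their values were seen. For independent groups chance gives about 1 in 20. These groups were not independent, since the genes most like each of the 7 were picked for sharing its pattern, and the ratios reuse the 7. That rate is therefore no yardstick here. Such groups numbered 16, and 10 of them had sham replicate 4 as the library apart. In that library Il6 was at 2.55 CPM (4.98 to 5.24 in the other sham libraries), the log2 ratio of Il6 to Il6ra was -6.74 (-5.95 to -5.84) and that of Lifr to Il6st was -3.86 (-4.71 to -4.64). Among the pathway genes so examined, those low there were Zc3h12a at 77.3 CPM (127 to 135), Zfp36 at 740.0 CPM (1080 to 1130) and Junb at 606 CPM (854 to 882). Of the genes most like Il6, Il6st and Lifr, Ptgs2 was at 29.4 CPM (49.2 to 49.9), Dusp1 at 863 CPM (1260 to 1330), St6gal1 at 245 CPM (306 to 316) and Tbccd1, higher there, at 21.1 CPM (17.1 to 17.6).

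In CLP replicate 3 Clcf1 was at 243 CPM (334 to 345 in the other CLP libraries), Ptgs2 at 323 CPM (590 to 645) and the B cell marker Cd79b at 15.9 CPM (23.0 to 23.9). CLP replicate 4 had Lcn2 at 4.43 CPM (2.14 to 2.18), CLP replicate 2 had the platelet gene Ppbp at 8.54 CPM (11.2 to 11.3), and sham replicate 3 had the NK cell gene Prf1 at 2.45 CPM (1.56 to 1.59).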

How the results depend on the processing

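Il6, Osmr, Lif, Il6st and Lifr kept their direction and their call under all 16 alternatives. Their log2 fold changes with each library left out were 3.30 to 3.63, 3.24 to 3.72, 2.46 to 2.91, 0.61 to 0.79 and -0.95 to -0.78. Those of Osm were -0.84 to -0.61. With 1 surrogate variable Osmr was at 2.82 and Lif at 2.06. Library totals gave calls to Il6ra (-0.38) and Osm (-1.04), and called 7721 genes, 16.7% of them higher, against 6064 and 45.6% with TMM factors. One surrogate variable left 3550 calls. The labels do not say whether the replicate numbers pair the libraries. In their deviations from the group mean, same-numbered libraries correlated at 0.0743, -0.0377, 0.261 and -0.192. Those of different number correlated at -0.208 to 0.191. With 4 libraries per group these values cannot decide on a pairing. A fit with a replicate block called 6089 genes, kept the calls of all 7 genes, and ended those of Zfp36l2 (-0.74, adjusted p = 0.0680 in edgeR), Csf3r (0.0503) and Batf3 (0.0533), while Cd4 gained one (0.0309). The genes induced through gp130 and STAT3 had 16 higher under it. Under such a block the log2 ratios kept their values (3.56 for Il6 to Il6ra, 3.55 for Lif to Lifr, -0.78 for Il6ra to Il6st, -1.60 for Lifr to Il6st, 4.21 for Il6 to Osm), each at the smallest exact p that 4 pairs allow, 0.125.

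Genes without a call changed sign. With library totals these were Il11ra1 (-0.18), Il27ra (-0.014), Siglec1 (-0.17), Plac8 (-0.19), Jchain (-0.087), Cd4 (-0.082), Prf1 (-0.080), Ccr9 (-0.19), Slc4a1 (-0.23) and Junb (-0.079). With 1 surrogate variable they were Il11ra1 (-0.036), Il27ra (-0.030), Plac8 (-0.095), Prf1 (-0.096) and Ccr9 (-0.30). With each library left out the ranges were -0.025 to 0.23 for Il11ra1, -0.19 to 0.61 for Il27ra, -0.49 to 0.033 for Il31ra, -0.13 to 0.053 for Jun, -0.098 to 0.28 for Plac8, -0.16 to 0.44 for Prf1, -0.23 to 0.33 for Ccr9, -0.13 to 1.06 for Slc4a1 and -0.12 to 0.0073 for Nub1. The cause was not tested. Depth limits Osm, with at most 42 reads per library, and Osmr and Lif in sham, with at most 32 and 15.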
